A study of Mus musculus with 61 samples.

Results

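The proteasome is the main protease that destroys ubiquitin-tagged proteins in the cytosol and nucleus, and its constitutive subunit genes were followed in mouse CD4 T cells during their first 72 h in culture. Members were the genes whose platform symbol begins with Psma, Psmb, Psmc or Psmd and a digit, leaving out Psmb8, Psmb9 and Psmb10, the inducible subunits of the immunoproteasome. The rule used names only and gave 36 of the 12291 genes named on the arrays, each represented by its brightest probe set with a single gene.

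The series holds 61 Affymetrix arrays of biotin-labelled cRNA from C57BL/6 cells, and its labels describe naive CD4 T cells stimulated through CD3 and polarized to Tr1 cells, a CD4 T cell type that makes IL-10, with the cytokine IL-27. The type HT_MG-430A was used for 52 arrays, 26 of an arm labelled IL27 and 26 of an arm labelled ctrl, taken at 18 times between 0.5 and 72 h. At 8 of these times each arm had 2 arrays and otherwise 1. On 9 arrays of the type Mouse430A_2, single arrays covered IL27 cells at 4, 16 and 48 h, a pair named GFPP and GFPN at 48 h, and ctrl cells at 0, 4, 16 and 48 h. The same protocol text, IL-27 at 25 ng/ml included, is attached to all samples, ctrl samples too, so arm and time were taken from the titles. All groups shared the strain and, by that text, stimulation with an antibody to CD3 at 1 µg/ml, with a second antibody written as an antibody to CD8. The time unit was taken as hours. No label explains GFPP, GFPN or a suffix d on the second array of a time. Nor do they say if each array stands for its own culture or mouse. The p-values therefore measure the spread among arrays, and this may be technical. Where stages of several times were compared, the spread also holds change with time within a stage, for which the fit had no term.

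As background, the 20S core is a barrel of alpha rings outside and beta rings inside. In the constitutive core the beta subunits encoded by Psmb5, Psmb6 and Psmb7 cut after hydrophobic, acidic and basic residues. The 19S cap binds ubiquitin chains, removes them and threads the protein into the core by means of its ring of ATPases. Lymphocytes can replace the catalytic trio with the products of Psmb8, Psmb9 and Psmb10, which interferons induce, and activated T cells need proteasome activity to divide.

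Of the 36 members, 35 were tested, after a filter that kept a gene if 5 or more arrays read it above their median. Psma8, an alpha-type subunit of the testis, was above the median on no array, with intensities of 9.81 to 14.5 on HT_MG-430A. Psmc3ip shares only the name: it encodes HOP2, a recombination factor of meiosis, and was kept apart. The other 34 genes encode 7 alpha subunits, 3 catalytic and 4 other beta subunits, 6 ATPases and 3 other proteins of the 19S base, 8 lid proteins and 3 chaperones that assemble the base. All values are intensities as deposited, and all differences are on the scale log2(intensity + 32), tested with limma over 7164 genes, with Benjamini-Hochberg adjusted p under 0.05 as the threshold for a call. An intensity depends on its probes as well as on the RNA, so genes were not ranked by level.

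The ctrl array at 12 h stood apart from all others. Its highest correlation with any other array over the named genes was 0.924, and the next lowest such value was 0.987. Of the 34 genes, 31 lay outside the range of the 8 neighbouring ctrl arrays there (21 below and 10 above), which is 91.2%, against 65.4% of all genes tested. Psmd13, a lid subunit, read 39.3 on that array and 485.5 to 961 on its neighbours, and Psmb3, a non-catalytic beta subunit, read 6733 and 2716 to 3735. Results that rest on this array are given with and without it. Every marker listed for CD4 T cells (Cd3e, Cd3g, Cd3d, Cd4 and Cd28) was above the array median on all 52 arrays. Of these, all but Cd4 mark T cells in general. Of the 2 CD8 T cell markers, Cd8a (at most 20.4) was above the median on 0 arrays and Cd8b1 (44.3 to 313) on all 52. Of the 4 B cell markers, Ighm (380 to 3468) was above it on all 52, Cd79b (16.5 to 120) on 7, Ms4a1 (10.2 to 106) on 6 and Cd79a (10.2 to 29.2) on 1. Of the 5 myeloid markers, Lyz2 (12.6 to 255) and Mpeg1 (10.8 to 63.3) were above it on 11 arrays each, Csf1r on 2, and Itgam and Cd14 on 0. The NK markers Klrc1 (12.3 to 57.1) and Ncr1 were above it on 2 and 0.

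In both arms most of the 34 genes rose within hours of stimulation and were highest at 8 to 20 h, and part of them then fell. For each array the median over the 34 genes was taken after each gene was centred on its own mean log2 value. In the IL27 arm this median was -0.90 at 0.5 h, -0.83 at 1 h, -0.13 at 4 h, 0.42 at 12 h, 0.27 at 25 h, 0.05 at 48 h, and -0.30 and -0.45 at 72 h. In the ctrl arm it was -0.91 at 0.5 h, -0.85 at 1 h, -0.39 at 4 h, -0.10 on the odd 12 h array, 0.41 at 18 h, 0.23 at 25 h, -0.06 at 48 h, and -0.32 and -0.14 at 72 h. The same median over all genes tested stayed between -0.19 and 0.05 on every array. Single genes peaked between 8 and 20 h in 28 of 34 cases in the IL27 arm and, without the 12 h array, in 30 of 34 cases in the ctrl arm. Psmb1 in the ctrl arm and Psmd8, a lid subunit, in the IL27 arm were highest at 72 h. The peak over the 0.5 h level had a median of 2.84-fold (1.54 to 5.87) in the IL27 arm and 2.74-fold (1.56 to 5.48) in the ctrl arm. Psmd7 of the lid had the highest ratio in both arms, and Psmd4, the ubiquitin receptor of the base, had the lowest.

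**Figure D1:**
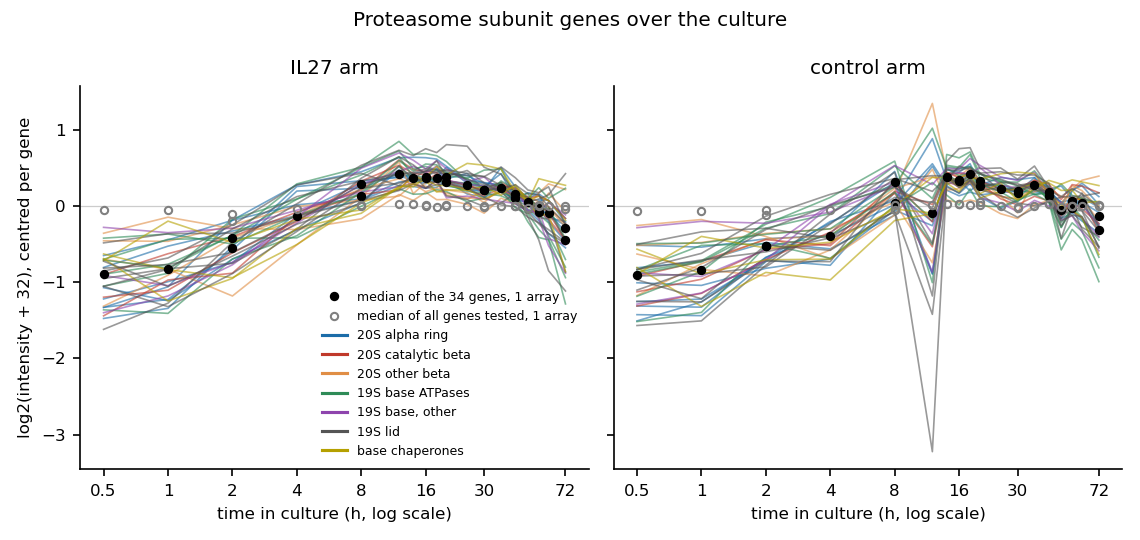
The 34 proteasome genes on HT_MG-430A arrays, centred per gene on the log2(intensity + 32) scale, against time in hours on a log axis: a line per gene coloured by role, filled points for the median of the 34 genes on an array and open points for the median of all genes tested. The IL27 arm (left) runs from -0.90 at 0.5 h to 0.42 at 12 h, and the ctrl arm (right) has its odd 12 h array at -0.10.

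The first step compared arrays at 4 to 8 h with arrays at 0.5 to 2 h (3 against 4 arrays per arm). Of the 34 genes, 30 rose in the IL27 arm, where 29.9% of all genes tested rose, and the same 30 rose in the ctrl arm, where 26.8% did. None fell, when 24.8% and 26.9% of all genes did. The median difference was 0.88 in the IL27 arm and 0.73 in the ctrl arm, against 0.03 and -0.003 over all genes tested. The 4 genes not called in either arm were Psmb1, Psmd8, Psmd9 and Psmd13. Leaving out the 12 h ctrl array, which changes the estimate of the spread, 32 genes rose in the IL27 arm (32.5% of all genes) and 31 in the ctrl arm (29.4%). The result rests on the 8 h arrays, without which the 4 h array alone stands for the later stage of an arm. Then 17 genes rose in the IL27 arm (15.7% of all genes), with a median of 0.64, and in the ctrl arm 8 rose (12.8%) and Psmb1 fell (11.9% fell), with a median of 0.26. All 5 markers listed for CD4 T cells fell over the same step in both arms (Cd28 at -2.14 and -2.61). The 4 B cell markers, summed, were at 548 to 1112 at 4 to 8 h and 1200 to 3525 at 0.5 to 2 h in the IL27 arm, and at 734 to 1157 and 1286 to 3446 in the ctrl arm. This sum is mostly Ighm, which fell (-1.48 and -1.26). Ms4a1 moved the other way, with 41.5, 27.0 and 106 at 4 to 8 h in the IL27 arm against 18.6, 18.4, 20.1 and 32.1 at 0.5 to 2 h, and was called higher there (0.64) and not in the ctrl arm (0.29). The 5 myeloid markers, summed, were at 104 to 164 against 136 to 383 in the IL27 arm and at 90.2 to 127 against 128 to 272 in the ctrl arm. Their part in the result was not tested, and in such bulk samples fewer cells of a type and less RNA per cell cannot be told apart.

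The catalytic trio rose in both arms. Psmb5, the chymotrypsin-like subunit, read 2067, 3038 and 2957 at 4 to 8 h in the IL27 arm, against 1024, 1093, 1521 and 1573 at 0.5 to 2 h. The ctrl arm gave 1683, 3316 and 2622 at 4 to 8 h, against 1076, 1210, 1624 and 1575 at 0.5 to 2 h. The stages did not overlap in either arm, although the ctrl array at 4 h lay close to its 2 h arrays. The difference was 1.03 ± 0.17 in the IL27 arm (SE, limma adjusted p = 2.3e-06) and 0.84 ± 0.17 in the ctrl arm (limma adjusted p = 6e-05). Psmb7, the trypsin-like subunit, read 1205, 1581 and 1373 at 4 to 8 h in the IL27 arm, against 468.1, 660.6, 624.4 and 794.7 at 0.5 to 2 h. The ctrl arm gave 1037, 1672 and 1327, against 514.8, 581.4, 805.0 and 800.2. Again no array of the later stage lay within the earlier one, and the differences were 1.10 ± 0.16 and 0.96 ± 0.16. Psmb6, the caspase-like subunit, read 1871, 2437 and 2146 in the IL27 arm at 4 to 8 h, against 1048, 1273, 1428 and 1558 at 0.5 to 2 h. For the ctrl arm the values were 1371, 2504 and 2053, against 1031, 1188, 1544 and 1362, so that the 4 h array lay among the earlier ones. It rose by 0.69 ± 0.14 and 0.59 ± 0.14, the lowest of the trio. Without the 8 h arrays all 3 were still called in the IL27 arm (0.68 for Psmb5, 0.50 for Psmb6 and 0.91 for Psmb7), but in the ctrl arm Psmb7 alone was (0.62), with 0.31 for Psmb5 (limma adjusted p = 0.33) and 0.11 for Psmb6 (limma adjusted p = 0.71).

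**Figure D2:**
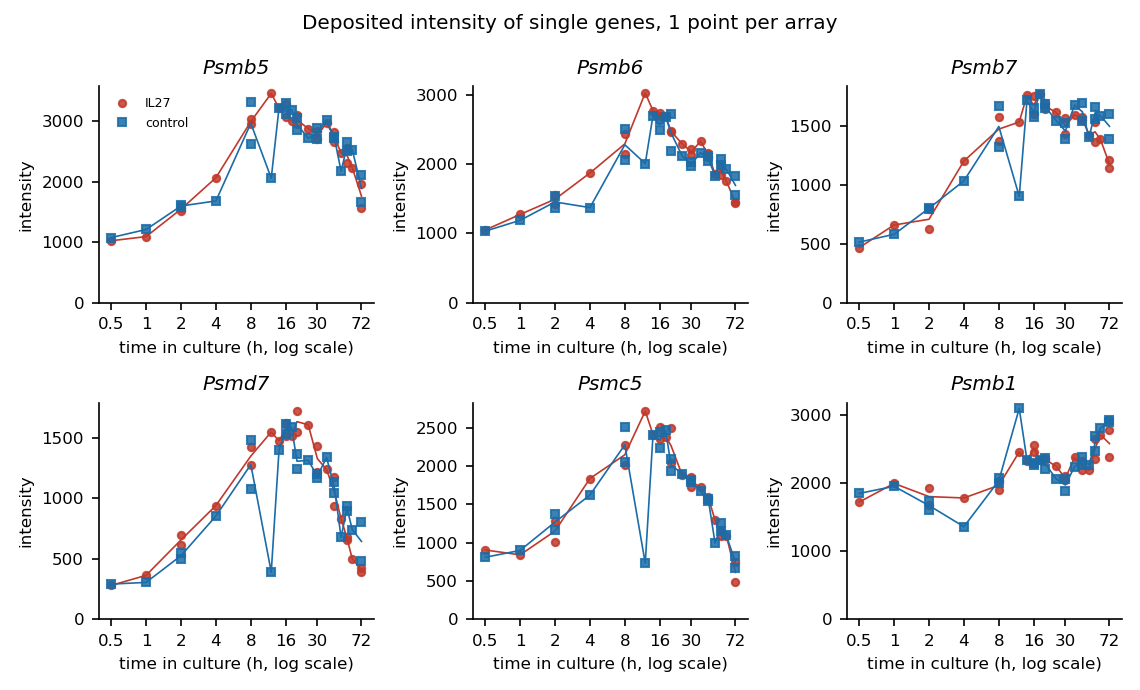
Deposited intensity of Psmb5, Psmb6, Psmb7, Psmd7, Psmc5 and Psmb1 on each HT_MG-430A array against time in hours (log axis), 1 point per array, with lines through the mean at each time, for the IL27 and ctrl (drawn as control) arms. The first 5 genes climb in the first 8 h (Psmd7 read 278.5 at 0.5 h and 1422 at 8 h in the IL27 arm), while Psmb1 stays between 1357 and 3093.

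Among the other parts of the core, all 7 alpha subunits rose in both arms. Psma4 changed most in the IL27 arm (1.27 ± 0.20) and Psma7 in the ctrl arm (1.18 ± 0.23). Without the 8 h arrays 6 of the 7 were called in the IL27 arm and 2 in the ctrl arm, Psma4 (0.81) and Psma5 (0.88), where the other values ran down to 0.06 for Psma2. Of the 4 other beta subunits, 3 rose, led by Psmb3 (0.88 and 0.75). Psmb1, a beta subunit that carries no active site, was the exception: it read 1778, 2024 and 1902 in the IL27 arm at 4 to 8 h, against 1718, 1993, 1928 and 1670 at 0.5 to 2 h. Ctrl arrays gave 1357, 2072 and 1992, against 1845, 1950, 1728 and 1607. The stages overlapped, and the differences were 0.06 ± 0.11 and -0.001 ± 0.11. Without the 8 h arrays 1 of these 4 genes rose in the IL27 arm, Psmb2 (0.64), and 0 rose in the ctrl arm.

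In the 19S cap, all 6 ATPase genes of the base rose, led by Psmc1 (1.03 and 0.98), as did all 3 other base genes, led by Psmd1, a large scaffold protein (1.31 ± 0.19 and 1.32 ± 0.19). Without the 8 h arrays 1 ATPase gene was called in the IL27 arm, Psmc4 (0.70), and 0 in the ctrl arm (limma adjusted p from 0.14 to 0.69), where Psmc1 was at 0.60, while Psmd1 (0.88 and 0.97) and Psmd2, another scaffold protein of the base, were called in both. Of the 8 lid genes, 6 rose. Psmd7, the MPN-fold partner of the lid deubiquitinase Psmd14, read 939.5, 1422 and 1274 at 4 to 8 h in the IL27 arm, against 278.5, 362, 616.6 and 693.4 at 0.5 to 2 h. Ctrl arrays gave 852.7, 1484 and 1073, against 289.6, 303.4, 500.4 and 548.6. The stages did not overlap, and the difference in the ctrl arm was 1.42 ± 0.30 (SE, limma adjusted p = 8.5e-05). With the 4 h array alone it was 0.99 in the IL27 arm and 1.05 in the ctrl arm and was called in neither, and 3 lid genes were called in each arm. Of the 3 chaperones, Psmd5 and Psmd10 (0.80 and 0.52) rose and Psmd9 (0.38 and 0.41) was not called. Without the 8 h arrays the Psmd10 difference in the ctrl arm was -0.003, from the 4 h array alone. Probe sets of 1 gene disagreed for Psmc6, with 0.35 and 0.36 for the brightest and 1.33 and 0.95 for a dimmer one, and for Psmd7, whose second set (mean intensity 110.5) gave 0.02 and -0.15. The second Psmb4 set (mean intensity 1612) gave 0.25 and 0.15, with 0.40 and 0.36 for the brightest. Psmc3ip, which is no subunit, rose as well (0.65 and 0.83).

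**Figure D3:**
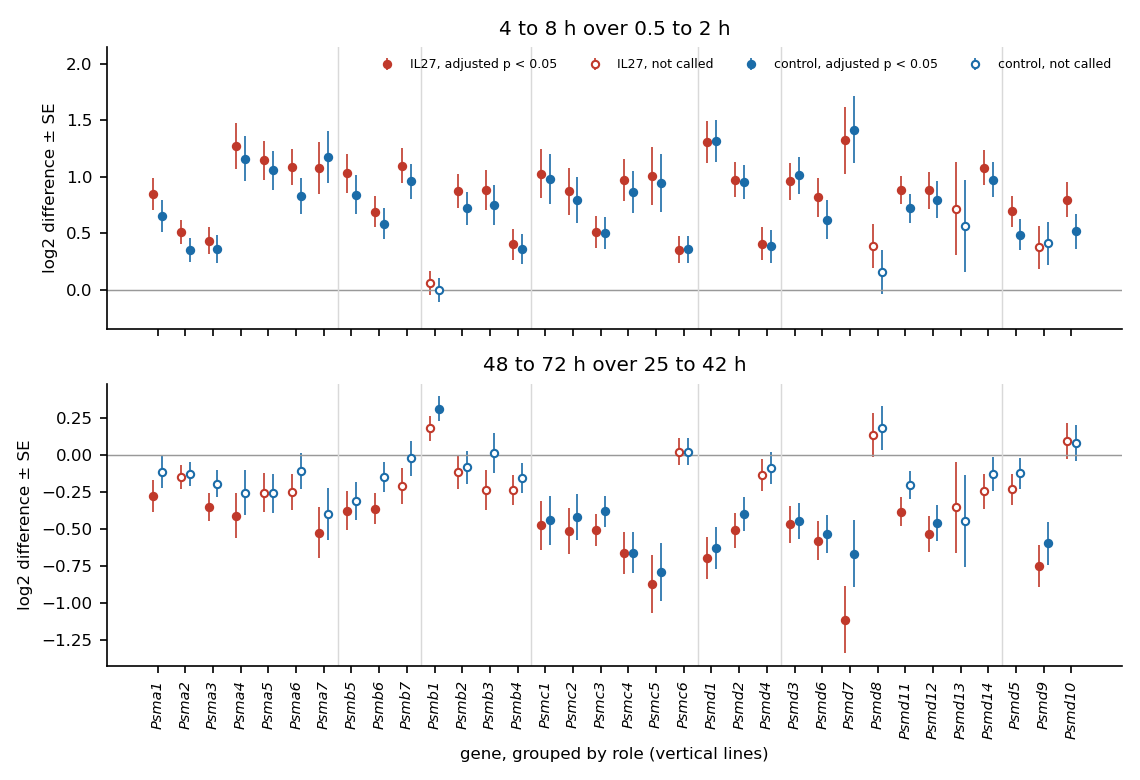
Differences ± SE of the 34 genes in the first step (top) and the last (bottom), on the log2(intensity + 32) scale, grouped by role in the complex, with IL27 left of ctrl (drawn as control) and calls filled. Nearly all points lie above 0 in the first step (median 0.88 and 0.73) and most lie below 0 in the last (median -0.36 and -0.23).

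The next steps were small. At 12 to 20 h over 4 to 8 h, 9 of 34 genes rose in the IL27 arm (14.9% of all genes tested) and 13 rose in the ctrl arm (21%), with medians of 0.27 in each. The 3 base chaperones Psmd5, Psmd9 and Psmd10 were among them in both arms. Without the 12 h ctrl array, 15 genes rose in the IL27 arm (18.8% of all genes) and 17 in the ctrl arm (24.2%). The counts also turned on other arrays: without the 4 h arrays 0 genes rose in the IL27 arm (5.65% of all genes) and 2 in the ctrl arm (10.8%), and in the IL27 arm 17 rose without the 8 h arrays (15.7%) and 5 without the 16 h arrays (10.7%). The medians were 0.16 and 0.05 without the 4 h arrays and 0.48 and 0.59 without the 8 h arrays. At 25 to 42 h over 12 to 20 h, 2 genes fell in each arm, Psmb6 (-0.28) and Psmc5 (-0.48) in the IL27 arm and Psmb3 (-0.44) and Psmb6 (-0.25) in the ctrl arm, where 14.8% and 15.4% of all genes fell. Without the 12 h ctrl array 4 fell in the IL27 arm (18.8% of all genes) and 5 in the ctrl arm (15.7%). Leaving out any other time gave 0 to 5 in the IL27 arm and 0 to 4 in the ctrl arm. The count was 0 in the IL27 arm without the 16, 30 or 42 h arrays and 0 in the ctrl arm without the 30 h arrays. It was 1 in the IL27 arm without the 1, 14, 18, 20, 36 or 60 h arrays and 1 in the ctrl arm without the 1, 14, 16, 18, 25, 36, 42, 48, 54 or 60 h arrays. It was 4 or 5 in the IL27 arm without the 0.5, 2 or 72 h arrays and 4 in the ctrl arm without the 0.5 or 2 h arrays.

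The last step, 48 to 72 h over 25 to 42 h with 6 arrays on each side, went down. In the IL27 arm 19 of 34 genes fell, where 23.6% of all genes tested fell. In the ctrl arm 12 fell (17.7% of all genes) and 1, Psmb1, rose by 0.31 ± 0.08 (19.2% of all genes rose). The medians were -0.36 and -0.23, against -0.01 and 0.01 over all genes tested. In the 19S cap, 5 of 6 base ATPases fell in both arms and 2 of 3 other base genes fell in both. Of the 8 lid genes, 5 fell in the IL27 arm and 4 in the ctrl arm. In the core, 4 of 7 alpha and 2 of 3 catalytic subunits fell in the IL27 arm and 0 of either in the ctrl arm. Whether cap and core genes differed was not tested. The counts depended on the 72 h arrays, without which 10 genes fell in the IL27 arm (15.1% of all genes) and 7 in the ctrl arm (10.7%), with medians of -0.22 and -0.14. Of these, 0 were alpha or catalytic subunits in either arm, and 3 were base ATPases in each. Without the 12 h ctrl array, 22 fell in the IL27 arm (27% of all genes) and 16 in the ctrl arm (21.5%), while Psmb1 rose in both and Psmd8 in the ctrl arm (26% and 21.8% of all genes rose). Psmb1 was also called higher in the IL27 arm without the 4, 8 or 48 h arrays. Of the 5 markers listed for CD4 T cells, 3 rose over this step in the IL27 arm (23.5% of all genes rose) and 1 in the ctrl arm. Cd8b1 rose in both arms (0.46 and 0.58), and Ighm fell in the ctrl arm (by 1.05). Their part in the fall was not tested.

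Psmd7 fell most in the IL27 arm, where it read 390.3 to 831.5 with a median of 575.4 at 48 to 72 h, against 933.4 to 1608 with a median of 1228 at 25 to 42 h. In the ctrl arm it read 483.9 to 936.3 (median 770.3), against 1046 to 1337 (median 1183). The stages did not overlap in either arm, and the differences were -1.11 ± 0.23 and -0.67 ± 0.23. Without the 72 h arrays they were -0.90 and -0.55, and the second was not called (limma adjusted p = 0.099). Psmc5, an ATPase of the base, read 477.8 to 1292 (median 1085) in the IL27 arm, against 1567 to 1880 (median 1727), and 662.7 to 1255 (median 1043) in the ctrl arm, against 1544 to 1898 (median 1727). It fell by 0.87 and 0.79, with no overlap. At 72 h it read 741.6 and 477.8 in the IL27 arm, both below the 902.7 of 0.5 h, and 662.7 and 818.7 in the ctrl arm, on either side of the 807.1 of 0.5 h. The median gene stood at 1.47 and 1.62 times its 0.5 h level. Psmd1 (-0.70 and -0.63) and the chaperone Psmd9 (-0.75 and -0.60) also fell in both arms, with and without the 72 h arrays. The values of Psmb5 were -0.38, called in the IL27 arm, and -0.31, not called in the ctrl arm (limma adjusted p = 0.055). The values of Psmb6 were -0.37, called in the IL27 arm, and -0.15, and Psmb7 at -0.21 and -0.03 was called in neither. The brightest probe set of Psmc6 gave 0.02 in both arms, while a dimmer one gave -0.58 and -0.55. For Psmd7 the second probe set (mean intensity 110.5) gave -0.21 and -0.15. The brightest set of Psmb4 gave -0.24 and -0.16, and its second set (mean intensity 1612) gave 0.02 and -0.05.

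Whether the steps differed between the arms was tested as the step in the IL27 arm minus that in the ctrl arm, a test chosen after the data were seen. None of the 34 genes was called in any of the 4 steps by limma, and 0 reached an unadjusted p under 0.05. Over all genes tested, 0.0558%, 0.014%, 0.516% and 0.475% were called in the 4 steps in order. The medians were 0.10, -0.01, -0.09 and -0.09, and the most negative value in the last step was Psmd7 at -0.45 ± 0.32 (SE). This fit did not match the arms at each time, and its SE also held change with time within a stage. It could therefore miss differences of this size, and the lack of calls does not show that the arms were alike. The larger number of core subunits called in the IL27 arm is not shown to be a difference between the arms.

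The ctrl array at 0 h, of the type Mouse430A_2, has no counterpart among the other arrays. Its title gives the 0 and the labels do not say whether its cells had met the antibodies. The comparisons with it rest on single arrays and carry no test. At 4 h 22 of 34 genes were more than 1.5-fold above the 0 h array (32.1% of all genes compared), at 16 h 28 (29.8%) and at 48 h 25 (29.5%). None was more than 1.5-fold below it. The median ratios were 1.75, 2.09 and 1.91, against 1.04, 1 and 0.996 over all genes. Psmd7 read 2105 at 4 h, 2798 at 16 h and 2393 at 48 h, with 613.3 at 0 h, and its ratios of 3.43, 4.56 and 3.9 were the highest. Psmb5 read 3313, 4359 and 3649 at those times, with 1633 at 0 h. Psmb1, low in change here too, had ratios of 0.782, 1.31 and 1.31. Psma3, Psmb3, Psmd4, Psmd5 and Psmd10, which rose in the first step on HT_MG-430A, did not pass 1.5-fold at any of these times either. Of these, Psmd10 had ratios of 0.801, 1.12 and 1.05. Psmc3ip had ratios of 1.68, 7.47 and 6.3.

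Few of these genes were called different between the IL27 and ctrl arms. IL27 and ctrl arrays were compared at matched times in an early window (0.5 to 4 h, 5 arrays per arm), a middle window (8 to 20 h, 9 per arm) and a late window (25 to 72 h, 12 per arm). In the early window limma called 0 of 34 genes (5 at an unadjusted p under 0.05), against 2.33% of all genes tested, and the differences ran from -0.15 for Psmd2 to 0.37 for Psma7, with a median of 0.04. In the late window it called 0 (1 at an unadjusted p under 0.05), against 18.5% of all genes, with differences from -0.16 for Psmd7 to 0.09 for Psmd8 and a median of -0.03. The late values of the catalytic trio were -0.03 for Psmb5 (95% interval -0.14 to 0.08), -0.02 for Psmb6 (-0.12 to 0.09) and -0.10 for Psmb7 (-0.22 to 0.02). Psmb5 averaged 2499 ± 419 in the IL27 arm and 2539 ± 380 in the ctrl arm there (SD, n = 12 each). Over all 34 genes the late intervals reached from -0.39 to 0.44. In no window did the arrays of the arms separate for any of the genes. Over all genes tested they separated for 0.363% early, 0.712% in the middle and 0.656% late. Each window pools times over which levels changed.

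In the middle window 3 genes were called, with 10.7% of all genes tested. Psma4 averaged 3712 ± 191 in the IL27 arm and 3200 ± 653 in the ctrl arm (SD, n = 9 each), a difference of 0.25 ± 0.08 (limma adjusted p = 0.03). Psma7 averaged 3906 ± 269 and 3319 ± 752, a difference of 0.28 ± 0.09 (limma adjusted p = 0.042). Psmb3 averaged 3137 ± 358 and 3736 ± 1170, a difference of -0.21 ± 0.07 (limma adjusted p = 0.039), and the mean of its probe sets gave 0.03. All 3 calls rested on the odd ctrl array at 12 h: without it the values were 0.12 for Psma4, 0.13 for Psma7 and -0.14 for Psmb3, none called, and Psma2 alone was (0.14, limma adjusted p = 0.044, with 8.13% of all genes). The higher calls also went to 0 without the 16 or 20 h arrays and to 1 without the 14, 30, 42 or 54 h arrays, and the lower call went without the 14, 16, 18, 20 or 42 h arrays.

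Marker genes differed between the arms too. In the middle window Cd4 (-0.52), Cd3g (-0.36), Cd8b1 (-0.58) and Ighm (-0.65) were lower with IL27 and Mpeg1 (0.18) was higher, all called without the 12 h ctrl array as well. In the early window Cd4 (-0.41) and Cd28 (-0.53) were lower, and in the late window Cd4 (-0.30), Cd8b1 (-0.62) and Mpeg1 (-0.14) were lower and Cd28 (0.47) was higher. Their part in the differences given here and for the related genes was not tested.

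The array at 12 h touched the other windows through the estimate of the spread. Without it, Psma2 (0.19) and Psma7 (0.37) were called higher early (3.32% of all genes called), where Psma7 averaged 2014 ± 889 in the IL27 arm and 1475 ± 440 in the ctrl arm (SD, n = 5 each), and 1 gene was called without the 0.5 h arrays. In the late window Psma4 (-0.13) and Psma6 (-0.13) were then called lower, with 23.6% of all genes called. The late difference minus the early one was called for Psma2 alone with all arrays (-0.25 ± 0.07, limma adjusted p = 0.033, with 7.09% of all genes called), from 0.19 early and -0.06 late. With the 12 h ctrl array left out it was called for 5 genes, all lower (Psma2, Psma4, Psma6, Psma7 and Psmb4, with 10.2% of all genes). It was called for 0 genes without the 1, 4, 30, 42 or 72 h arrays and for 2 without the 0.5 h arrays.

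**Figure D4:**
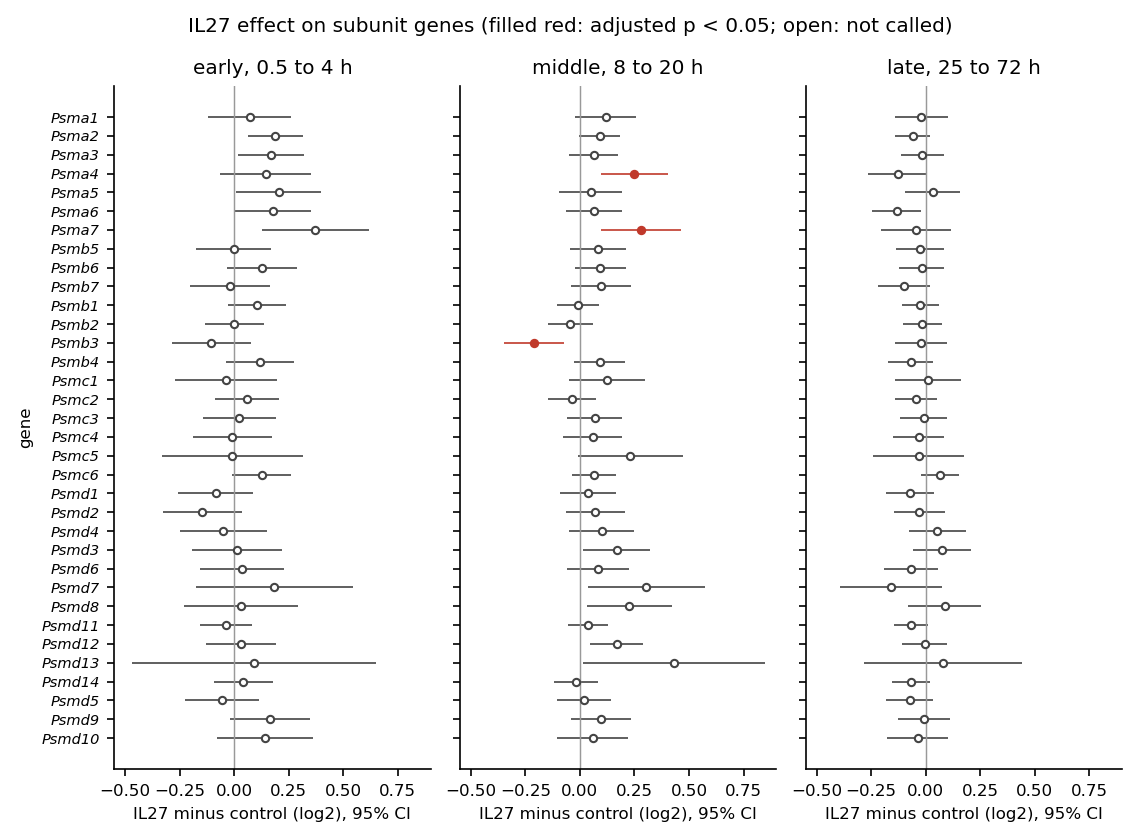
Difference of the IL27 arm from the ctrl arm for each of the 34 genes in the early, middle and late windows, on the log2(intensity + 32) scale, with 95% intervals, and calls filled. The late values lie between -0.16 and 0.09, and 3 genes are called in the middle window, where the 12 h ctrl array enters.

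On Mouse430A_2, with 3 arrays per arm and 2 residual degrees of freedom, limma called 0 of 34 genes and 0% of 6016 genes, and 0 of the 34 had an unadjusted p under 0.05. The median difference was -0.06. At 4 h Psmb5 read 3022 in the IL27 cells and 3313 in the ctrl cells there, whereas on HT_MG-430A at 4 h it read 2067 and 1683, single arrays in each case. Between the GFPP and GFPN arrays at 48 h none of the 34 genes differed more than 1.5-fold, when 0.731% of all genes compared were higher and 0.32% lower in GFPP. The ratios ran from 0.911 for Psmb7 (3925 in GFPP, 4308 in GFPN) to 1.11 for Psmd10, with no replicate.

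The immunoproteasome genes, which replace the catalytic trio, took another course. At 4 to 8 h 0 of Psmb8, Psmb9 and Psmb10 rose in either arm, and Psmb10 fell by 0.95 in the IL27 arm (-0.36 and not called without the 8 h arrays), while Psmb7, whose product it replaces, rose. Psmb9, which replaces Psmb6, was higher with IL27 in the early window (0.84, limma adjusted p = 0.0046) and in the middle window (1.19, limma adjusted p = 4.8e-08), and Psmb8, which replaces Psmb5, in the middle window (0.59). Without the 12 h ctrl array the middle values were 1.13 for Psmb9 and 0.46 for Psmb8, both called, and Psmb8 was also called early (0.38). In the late window Psmb10 was lower with IL27 (by 0.36). Psmb9 had by then changed sides: at 48 to 72 h it read 1341 to 1670.6 in the IL27 arm and 1759.7 to 2247.5 in the ctrl arm. These ranges do not overlap, and no test was made of these times alone. At 25 to 42 h over 12 to 20 h all 3 rose in the ctrl arm (1.05 for Psmb8, 1.75 for Psmb9 and 0.77 for Psmb10), where Psmb6 and Psmb3 fell and 14.1% of all genes rose. Without the 12 h array these values were 0.82, 1.64 and 0.76, all called. The IL27 arm also read higher: Psmb9 was at 1394 to 1574.5 at 25 to 42 h, against 824.5 to 1237 at 12 to 20 h. Psmb10 was at 536 to 768.1 there, against 306.9 to 502. Psmb8 was at 2734 to 3367, against 1697 to 2937, ranges that overlap. On the 0 h ctrl array Psmb8 read 5178, Psmb9 3488 and Psmb10 2496, and at 4 h they read 2932, 2265 and 821.4 in the IL27 cells and 1686, 1042 and 724 in the ctrl cells. Psmb5, Psmb6 and Psmb7 read 3022, 3482 and 4625 in those IL27 cells and 3313, 3621 and 3842 in those ctrl cells. On the 16 h arrays of this type Psmb8, Psmb9 and Psmb10 read 5014, 2566 and 779.5 with IL27 and 3421, 985.1 and 812.8 in ctrl. By 48 h the order had turned, with 4206, 2546 and 970.9 with IL27 and 5955, 3925 and 1544 in ctrl, single arrays in each case. The ctrl values of Psmb8 and Psmb9 at 48 h were thus above those at 0 h.

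**Figure D5:**
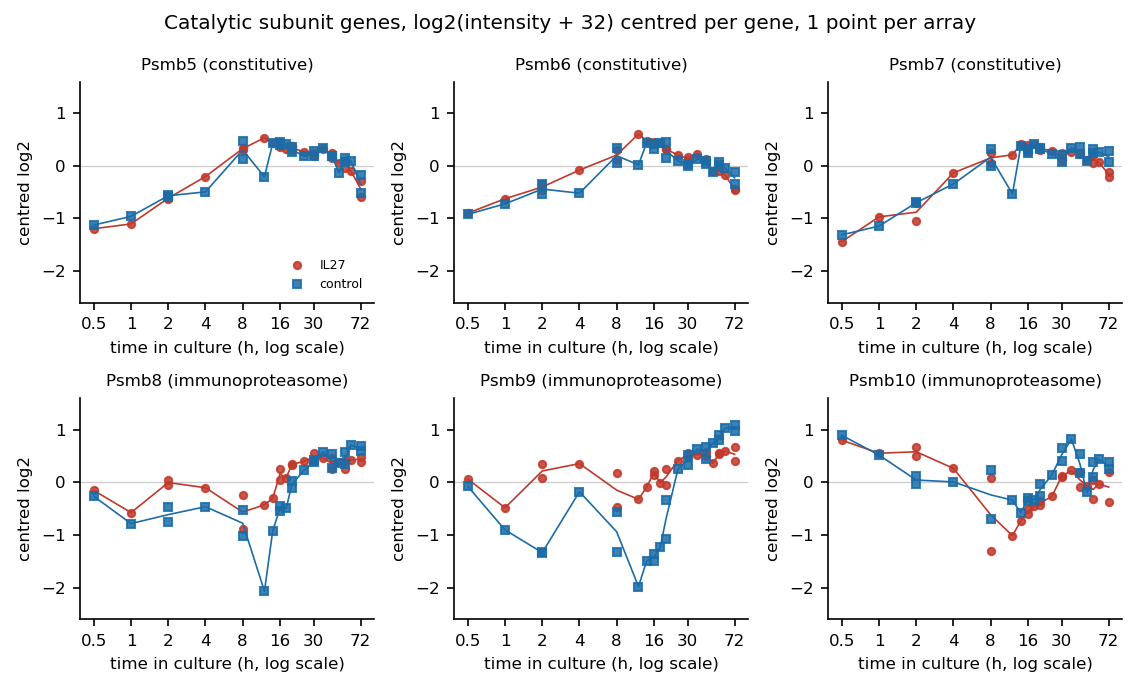
Each constitutive catalytic gene (top) above the immunoproteasome gene that replaces it (bottom), as log2(intensity + 32) centred per gene, against time in hours (log axis), 1 point per HT_MG-430A array, with lines through the mean at each time, for the IL27 and ctrl (drawn as control) arms. Psmb7 climbs between 0.5 and 8 h while Psmb10 comes down. The 8 h arrays lie apart for Psmb10, with intensities of 243.8 and 690.8 in IL27 and 388.4 and 769.3 in ctrl. Psmb9 lies lower in ctrl than in IL27 at most times up to 20 h, and higher at 48 to 72 h.

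Other genes of the system were followed as lists, chosen like the members with earlier results of these data known. The 5 assembly factors of the core all rose in the first step in both arms, in which 29.9% and 26.8% of all genes rose, with medians of 1.72 and 1.71. Among them were Psmg3 (1.85 and 1.87), a member of a chaperone pair for the alpha ring, and Pomp (1.06 and 0.98), the maturation factor of the beta ring. Of 4 activators and inhibitors, 2 rose: Psme3, the nuclear activator subunit PA28 gamma (1.89 and 1.83), and Psme1, a PA28 subunit induced by interferon (0.59 and 0.64), a share not far from that of all genes. The proteasome-bound deubiquitinases Uchl5 (1.02 and 0.98) and Usp14 (1.19 and 0.99) rose. Of 4 regulators, Vcp, the segregase that unfolds ubiquitinated proteins, rose (0.54 and 0.36), and 2 fell in both arms, Nfe2l2 (NRF2; -1.27 and -1.38) and Ngly1, the glycanase that activates NRF1 (-1.02 and -1.03). Without the 8 h arrays the calls of Psmg2, Uchl5, Usp14, Vcp and Ngly1 were lost in both arms and that of Psmg4 in the ctrl arm. In the last step Psme3 (-1.02 and -0.80), Psmg3 (-0.92 and -0.63), Uchl5 (-0.70 and -0.53) and Vcp (-0.52 and -0.40) fell in both arms, where 23.6% and 17.7% of all genes fell, and Psme3 and Uchl5 were not called in the ctrl arm without the 72 h arrays.

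Some of these genes differed between the arms, as did 2.33% of all genes early, 10.7% in the middle window and 18.5% late. With IL27, Psme1 (0.24) and Psmg4 (0.50) were higher early, and Pomp (0.24), Uchl5 (0.26) and Usp14 (0.42) were higher in the middle window. The middle calls went without the 12 h ctrl array, where the values were 0.14, 0.24 and 0.20, and Nfe2l2 was called instead (0.19). Late, Nfe2l2 (0.42, limma adjusted p = 7.7e-08) and Ngly1 (0.36) were higher, and Psme1 (-0.13) and Psmg1 (-0.15) were lower.

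How closely the genes moved together was described by Pearson's r across the 52 arrays, which share times and arms, so no test was made. The correlation of a gene with the mean of the other members had a median of 0.892, from 0.372 for Psmb1 and 0.531 for Psmd8 to 0.988 for Psmb5. Outside the group, the 8 genes most correlated with the members' mean were Mrps22, Polr2c, Ruvbl2, Mrps18b, Cct2, Cct5, Cct6a and Mrps31, at 0.977 down to 0.96. They encode mitochondrial ribosomal proteins, an RNA polymerase II subunit, an AAA ATPase and subunits of the chaperonin CCT. Psmb8 (0.156) and Psmb9 (0.009) were near 0, and Psmb10 (-0.588) and Nfe2l2 (-0.825) were negative. With the 12 h ctrl array left out, Mrps22 (0.981) and Polr2c (0.976) remained among the first 8, and the others there were Mrpl47, Mrps18a, Emc4, Mrpl19, Mrps17 and Nup43, at 0.977 down to 0.969, so that no CCT subunit was among them.

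Since the members' levels were correlated, their promoters were read from RefSeq windows of 300 bases on GRCm38.p6 (250 before the start and 50 after), which matched 29 of the 36 members with 31 windows. Psmc3ip is 1 of the 29, and the 28 subunit and chaperone genes had 30 windows. The antioxidant response element core, to which NRF1 and NRF2 bind, was searched on both strands as TGACNNNGC or TGAGNNNGC. It was in 15 of the 30 windows (50%), against 27.8% of all 32851 windows and 30.6% of the windows of genes on the arrays. The ETS motif CCGGAAG was in 11 windows (36.7%), against 8.9% and 13.9%. The NF-Y box CCAAT was in 36.7%, against 37.4% and 37.0%, the YY1 motif AAGATGGCG in 2 windows and the nuclear respiratory factor motif GCGCATGCG in 1. The Psmc3ip window held the first 3 motifs as well. A match of letters is a description and not a binding site. Shown are the 250 bases before the start of 2 catalytic genes, a lid gene and a base ATPase with the antioxidant response element core in capitals (on either strand), 5′ to 3′ on the gene's strand. Psmb5 is on chr14:54617996-54618245 (minus strand), Psmb6 on chr11:70525107-70525356 (plus), Psmd12 on chr11:107479278-107479527 (plus) and Psmc6 on chr14:45329574-45329823 (plus), with cores that begin 47 bases before the start in Psmb5, 9 in Psmb6, 247 and 28 in Psmd12 and 241 and 227 in Psmc6. The Psmc1 sequence, on chr12:100109952-100110201 (plus), has the ETS motif in capitals instead, 28 bases before the start.
Psmb5: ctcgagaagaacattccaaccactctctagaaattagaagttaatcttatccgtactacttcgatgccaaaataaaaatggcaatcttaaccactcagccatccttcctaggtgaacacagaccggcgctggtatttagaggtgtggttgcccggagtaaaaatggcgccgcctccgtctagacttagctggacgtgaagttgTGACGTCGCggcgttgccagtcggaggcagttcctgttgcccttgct
Psmb6: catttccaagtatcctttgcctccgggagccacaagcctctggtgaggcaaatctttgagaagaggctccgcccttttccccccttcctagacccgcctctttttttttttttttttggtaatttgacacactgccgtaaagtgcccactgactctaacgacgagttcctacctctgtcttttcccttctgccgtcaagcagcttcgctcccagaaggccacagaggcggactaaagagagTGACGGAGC
Psmd12: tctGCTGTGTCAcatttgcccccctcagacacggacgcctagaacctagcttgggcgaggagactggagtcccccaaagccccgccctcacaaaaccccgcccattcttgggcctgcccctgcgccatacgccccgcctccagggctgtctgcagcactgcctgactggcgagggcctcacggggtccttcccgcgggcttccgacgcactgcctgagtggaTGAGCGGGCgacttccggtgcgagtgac
Psmc6: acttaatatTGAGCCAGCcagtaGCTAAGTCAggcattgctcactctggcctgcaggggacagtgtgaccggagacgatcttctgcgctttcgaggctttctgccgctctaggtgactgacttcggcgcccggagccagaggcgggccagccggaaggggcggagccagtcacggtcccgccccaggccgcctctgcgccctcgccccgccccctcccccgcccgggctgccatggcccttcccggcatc
Psmc1: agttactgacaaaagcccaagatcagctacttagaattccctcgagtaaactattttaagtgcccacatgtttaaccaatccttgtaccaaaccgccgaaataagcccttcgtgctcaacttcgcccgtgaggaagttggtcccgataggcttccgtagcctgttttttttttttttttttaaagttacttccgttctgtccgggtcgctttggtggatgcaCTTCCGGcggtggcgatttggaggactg

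Of the 14 genes with the core in a window, 12 rose in the first step in each arm (not Psmd9 and Psmd13), and of the 14 genes whose windows lack it 13 did (not Psmd8). The 4 genes shown with the core were among those that rose: Psmb5 and Psmb6 as given above, Psmd12 by 0.88 and 0.80 and Psmc6 by 0.35 and 0.36. In the last step Psmd12 fell in both arms (-0.54 and -0.46) and Psmc6 was called in neither. Psmc1 rose in the first step and fell in the last (-0.48 and -0.44). Nfe2l2, which encodes a factor that binds the core, fell in the first step, and Nfe2l1, which encodes the other, was not called there (0.55 and 0.30). The data hold no measure of binding or of either protein.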

How the data were processed

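Per the labels' protocols, biotin-labelled cRNA was prepared from 6 µg of Trizol-extracted total RNA per sample. Each array type has a deposited table with the linear intensity of 22626 probe sets, and the submitters' processing notes name MAS5 and nothing else. Array medians lay between 28 and 36.6 for HT_MG-430A and between 70.7 and 78.9 for Mouse430A_2, and the deposited intensity values were taken as normalized by the authors and left as they were. Some probe sets hold exactly equal values on several arrays, such as Psmb5 with 3313 on the GFPP, GFPN and 4 h ctrl arrays. Scaling and background settings were not given in the sources. Precision is limited by the number of arrays.

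Gene names came from the platform tables, updated through gene identifiers with RefSeq (GRCm38.p6): only the 20173 probe sets with a single gene were used, which left out 942 with several genes and 1511 with none. For 5 members (Psma5, Psmc2, Psmc6, Psmd10 and Psmd11) only the Mouse430A_2 table gave the name. The brightest probe set over the HT_MG-430A arrays stood for a gene. List genes without such a probe set, Psmb11 among the members' families and Psme2 and Adrm1 among the related ones, were not analysed here.

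The scale of all tests was log2(intensity + 32), and the tool was limma 3.58.1 (R 4.3.3). IL27 effects were fitted with time as a factor and a coefficient per window, and course steps with a mean per arm and stage and no term for time. Single Mouse430A_2 arrays were compared as plain ratios of intensities. Named were the catalytic genes and, per role group and comparison, the member with the largest absolute difference, plus genes called in few numbers, whose names were chosen after their values were seen, and the lists and the 8 most alike genes. The members and lists were chosen with earlier results of these data known. The fit was tested on simulated data with independent normal noise and, for the steps, levels that were flat within a stage. These data held no odd array, so the test cannot tell how the calls hold on the real arrays. Alternatives were another pseudocount, filter, probe set rule or normalization, a replicate block, and leaving out arrays or times. The difference between the arms' steps was added after the data were seen.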

Additional observations from a re-analysis of the deposited data

Results flagged for a closer look

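For each gene, arm and stage with 4 or more arrays, the array farthest from the others was compared with Dixon's critical value at the 95% level. Of 280 groups tested, 30 held such an array. The nominal rate is about 1 in 20, but the genes share arrays and a stage spans several times. The 30 were therefore not set against chance. The ctrl array at 12 h accounted for 23 of the 30. Among core genes it read 1533 for Psma1, 5580 for Psma2, 1480 for Psma4, 3380 for Psma5, 1409 for Psma7, 3093 for Psmb1, 6733 for Psmb3, 2066 for Psmb4, 2060 for Psmb5 and 904.6 for Psmb7. Among base genes it read 611.5 for Psmc1, 4920 for Psmc2, 1249 for Psmc3, 1576 for Psmc4, 729.7 for Psmc5, 858.2 for Psmd2 and 826.6 for Psmd4. Among lid genes it read 558 for Psmd3, 2172 for Psmd6, 388.6 for Psmd7, 741.3 for Psmd8 and 39.3 for Psmd13. The median over the subunit genes, centred per gene, was -0.098 on that array. The cause was not tested.

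The other 7 were spread over arrays. In the IL27 arm, Psmb7 read 1440 on an array at 30 h and Psmd4 read 1467 on an array at 42 h, each apart from the 25 to 42 h arrays. In the ctrl arm, Psmc6 read 1048 at 0.5 h, Psma4 2997 and Psmd13 739.9 on arrays at 42 h, and Psma3 2550 and Psmd11 1508 on arrays at 72 h.

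The IL27 effect on Psma2 differed between the late and early windows by -0.248 in a test of that difference (limma adjusted p = 0.033).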

How the results depend on the processing

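Counts of subunit genes called were recomputed under each alternative. With the mean of all probe sets, 1 gene was called higher early, 0 lower in the middle window (Psmb3 turned to 0.027), 3 lower in late minus early, and 5 lower at 25 to 42 h in the IL27 arm. With no filter on low values, 1 was called higher and 0 lower in the middle window, 0 in late minus early, 5 higher at 12 to 20 h in the IL27 arm and 1 lower at 25 to 42 h in each arm. With quantile normalization, 1 was called higher in the middle window, 2 lower in late minus early and 1 lower at 25 to 42 h in the IL27 arm. With a pseudocount of 1, 1 was called lower at 25 to 42 h in each arm. Without the arrays of suffix d, 0 were called higher in the middle window, 0 in late minus early, 1 higher at 12 to 20 h in the IL27 arm and 0 lower at 25 to 42 h in both arms. Without the 12 h ctrl array, 2 were called higher early, 1 higher and 0 lower in the middle window, 2 lower late, 5 in late minus early, 15 higher at 12 to 20 h and 4 lower at 25 to 42 h in the IL27 arm, 5 lower at 25 to 42 h in the ctrl arm, and 1 and 2 higher at 48 to 72 h in the IL27 and ctrl arms. With the title suffix as a replicate block, 1 was called lower at 25 to 42 h in the IL27 arm and the other counts were those of the fit without it (30 in the first step of each arm); the suffix is only a label, and nothing says that it pairs arrays. Leaving out each time in turn gave 0 to 2 higher early, 0 to 3 higher and 0 to 1 lower in the middle window, 0 to 2 lower late and 0 to 5 in late minus early. In the IL27 arm it gave 17 to 32 higher in the first step, 0 to 17 in the second, 0 to 5 lower in the third, and 10 to 23 lower and 0 to 1 higher in the last. In the ctrl arm it gave 8 to 31 higher and 0 to 1 lower, 2 to 18 higher, 0 to 5 lower, and 7 to 16 lower and 1 to 2 higher. Psmd10 in the ctrl arm ranged between -0.003 (without the 8 h arrays) and 0.775 (without the 4 h arrays) in the first step. The cause of these changes was not tested.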
